A study of Mus musculus with 8 samples.

Results

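The membrane transporters and ion channels described here are 51 genes measured by 70 probe sets in newborn mouse epidermis that lacks the receptors for insulin and IGF-1. They were chosen by name: every gene given as a single symbol in the authors' deposited fold change table whose symbol begins with Slc, Abc, Atp, Kcn, Scn, Cacn, Clcn, Clca or Aqp followed by a letter or digit, without Slc2a3, Slc16a3 and Slc7a11. They were 51 of the 1396 symbols, and 70 of the 1804 probe sets, that this table gives with 1 symbol. No Clcn, Clca or Aqp gene was among them. The authors' table lists only probe sets that differed between the genotypes on these same 8 arrays, so size and direction of the members' differences were in part set by that selection. They are given as descriptions, without a test. Signals are from the deposited value table, on a linear scale.

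The study compared 4 dKO arrays (genotype IR-/-, IGF-1R-/-) with 4 control arrays (wild type), all from newborn C57Bl/6 mice and all made from epidermis after its separation from the dermis. The labels name the arrays of each genotype biological replicates, without saying how many animals each held. Any p-value sets a difference against the spread between these samples, which in limma is estimated with the help of all tested probe sets. How and in which cells the receptors were deleted, and the age in hours or days, are not given in the sources used here. The comparison addresses which transcripts of the epidermis differ when both receptors are missing. Because whole epidermis was used, fewer cells of a type and less RNA per cell cannot be told apart.

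Solute carriers (SLC) move nutrients, ions and drugs across membranes by exchange, by facilitated passage or by coupling to the sodium or proton gradient. The sodium gradient is maintained by the sodium and potassium ATPase, and proton gradients inside organelles by the V-type ATPase. ATP-binding cassette (ABC) transporters export lipids and foreign compounds, P4-type ATPases move phospholipids between the leaflets of a membrane, and ion channels let ions pass down their gradient. In epidermis such proteins serve keratinocyte nutrition, lipid export for the skin barrier and the calcium, sodium and potassium balance that accompanies differentiation, and insulin is known for its control of glucose and amino acid uptake in muscle and fat.

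The promoters of the members with the largest differences past the array-wide threshold, among those with a mean signal at or above the median of all probe sets, are shown because these genes carry the description that follows: 4 that were higher in dKO and 2 that were lower. The dimmer Slc16a14, with the largest negative difference, is thereby not among them. Each is the 250 bases before the RefSeq transcription start (GRCm38.p6), 5′ to 3′ on the strand of the gene. Capitals mark exact matches to any of 6 motifs searched on both strands: the FoxO element GTAAACA, the AP-1 element TGANTCA, the cAMP response element TGACGTCA, the E-box CACGTG, the GC box GGGCGG and the TATA box TATAAA.
Slc5a8 (chr10:88885742-88885991, plus strand): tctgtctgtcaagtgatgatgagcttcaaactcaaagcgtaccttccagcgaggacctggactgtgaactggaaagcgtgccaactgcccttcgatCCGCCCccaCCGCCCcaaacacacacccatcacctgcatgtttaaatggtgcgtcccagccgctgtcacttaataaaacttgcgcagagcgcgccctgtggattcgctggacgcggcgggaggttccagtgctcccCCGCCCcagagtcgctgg
Slc5a1 (chr5:33103969-33104218, plus strand): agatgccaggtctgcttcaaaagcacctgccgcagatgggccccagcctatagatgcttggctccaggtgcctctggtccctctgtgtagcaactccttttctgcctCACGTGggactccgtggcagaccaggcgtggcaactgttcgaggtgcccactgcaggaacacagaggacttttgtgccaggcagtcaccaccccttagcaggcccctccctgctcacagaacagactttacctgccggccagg
Abcb1b (chr5:8797897-8798146, plus strand): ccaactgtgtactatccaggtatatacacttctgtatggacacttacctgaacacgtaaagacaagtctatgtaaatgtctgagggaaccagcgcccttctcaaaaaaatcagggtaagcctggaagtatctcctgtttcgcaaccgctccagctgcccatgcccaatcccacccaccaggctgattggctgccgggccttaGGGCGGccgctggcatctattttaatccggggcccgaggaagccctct
Slc6a14 (chrX:21714650-21714899, plus strand): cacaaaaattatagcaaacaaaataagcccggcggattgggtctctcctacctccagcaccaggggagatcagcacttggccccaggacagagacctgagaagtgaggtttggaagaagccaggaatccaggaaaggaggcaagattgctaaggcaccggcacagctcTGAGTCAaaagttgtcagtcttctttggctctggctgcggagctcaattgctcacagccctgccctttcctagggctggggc
Kcnk2 (chr1:189402274-189402523, minus strand): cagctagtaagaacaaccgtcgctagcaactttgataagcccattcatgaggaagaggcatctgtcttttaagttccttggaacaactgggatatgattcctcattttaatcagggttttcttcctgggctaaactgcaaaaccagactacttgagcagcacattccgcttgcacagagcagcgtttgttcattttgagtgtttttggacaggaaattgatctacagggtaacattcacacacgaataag
Slc6a19 (chr13:73692637-73692886, minus strand): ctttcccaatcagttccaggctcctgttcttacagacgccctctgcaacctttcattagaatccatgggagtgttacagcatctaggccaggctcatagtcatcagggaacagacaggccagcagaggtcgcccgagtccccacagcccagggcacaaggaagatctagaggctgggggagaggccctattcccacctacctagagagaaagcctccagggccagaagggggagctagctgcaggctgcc

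A promoter was found for 41 of the 51 genes, and the first listed start was used where a gene had several, as Kcnk2 does. In 19 of the 41 windows the start used matched the outer end of the gene in RefSeq exactly. The FoxO element, bound by transcription factors that insulin signalling keeps out of the nucleus, was matched in 0 of 41 windows, against 2.58% of 17492 protein-coding promoters and 3.09% of all 27025. The AP-1 element was matched in 2 of 24 genes with a positive difference, Slc6a14 and Slc25a13, in 0 of 17 with a negative one, and in 6.22% of protein-coding and 6.87% of all promoters. The E-box was matched in 5 of 41 windows (12.2%), against 6.64% of protein-coding and 6.05% of all promoters, with Slc5a1 among them. In Slc25a13 the E-box match overlapped the AP-1 match. GC boxes were matched in 22 of 41 windows (53.66%), against 42.68% of protein-coding and 32.94% of all promoters, with 13 of 24 genes higher and 9 of 17 genes lower in dKO. The TATA box was matched in 3 of 41 windows (12.38% of protein-coding and 12.97% of all promoters), and the cAMP response element in 0 of 41 (2.01% and 1.62%). A match describes the letters in this window and no binding was measured.

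Of the 51 genes, each taken by its probe set with the highest mean signal, 30 had a positive log2 difference (dKO minus control) and 21 a negative one. The median difference was 0.65, against -0.07 over all 45032 tested probe sets, and the median size was 0.96, against 0.33. In 33 genes the 4 dKO and the 4 control signals did not overlap, 21 with all dKO arrays above all controls and 12 with all below. Over all tested probe sets the groups did not overlap in 9.37%, 3.44% above and 5.93% below, and over the 2006 tested probe sets of the authors' table in 68.2%. In limma fitted to all 45032 probe sets, 29 of the 70 member probe sets had a Benjamini-Hochberg adjusted p under 0.05 (41.4%), 18 higher and 11 lower in dKO, where 2.25% of all probe sets passed, 0.993% higher and 1.25% lower. By gene these were 12 higher and 8 lower, and 31 did not pass. Of the probe sets of the authors' table, 40.8% passed and 43.4% had a positive difference. Since that table was selected on the same contrast, nothing about the members is read from these counts, and "passed" below says only on which side of this threshold a gene stood.

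**Figure D1:**
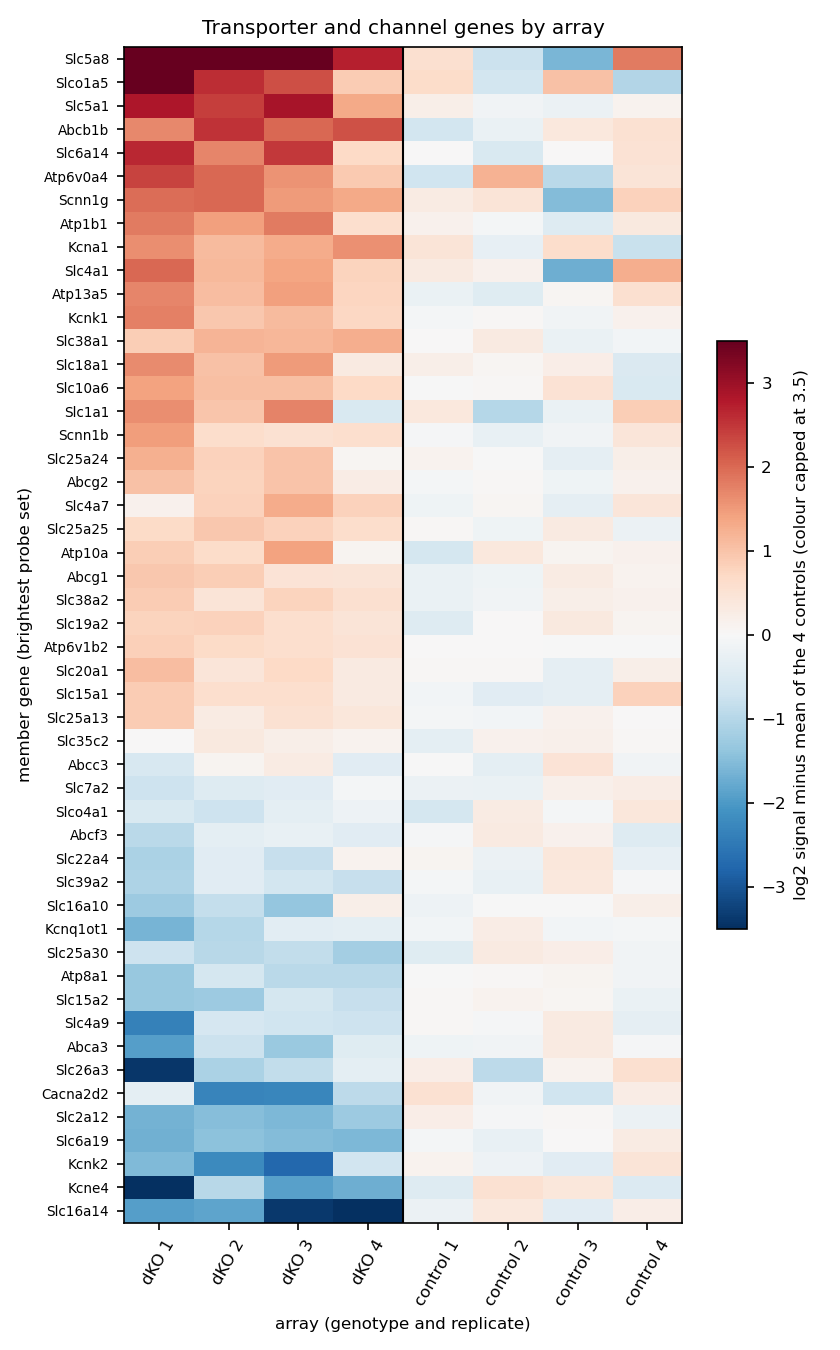
Log2 signal of 50 of the 51 member genes (rows, brightest probe set, ordered by difference) in the 4 dKO and 4 control arrays (columns), minus the mean of the 4 controls. Colour is capped at 3.5. The upper 30 genes had positive differences and the lower 20 negative ones, and dKO replicate 4 is the palest of the dKO columns over most of the upper rows.

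The carriers of sugars and monocarboxylates showed large differences in both directions, and all 3 passed. Slc5a8, which takes up lactate, butyrate and other monocarboxylates together with sodium, had signals of 736.7, 549.4, 581.8 and 317.6 units in dKO, against 69.9, 28.2, 15.8 and 167.6 in controls. All dKO arrays lay above all controls, although the controls themselves spread from 15.8 to 167.6 and dKO replicate 4 was the lowest dKO array. The average signal was 546 ± 173 for dKO and 70.4 ± 68.8 for controls (SD, n = 4 each), a log2 difference of 3.45 (SE 0.57). Control replicates 1 to 3 were dim or close to it, and with 32 units added to each signal the difference was 2.67. Slc5a1, the sodium-coupled glucose carrier SGLT1, had signals of 1599.8, 1204.8, 1646.2 and 557.8 units in dKO, against 255.5, 203.6, 194.9 and 244.8 in controls. The groups did not overlap, with dKO replicate 4 again closest to the controls. The log2 difference was 2.37 (SE 0.28), a 5.17-fold higher level in dKO, and the second probe set of the gene gave 2.09 (SE 0.32). Slc2a12, which encodes the facilitative glucose carrier GLUT12, went the other way, with 24.9, 28.2, 26.4 and 32.5 units in dKO, against 92.4, 76.6, 80.6 and 67.8 in controls. Its dKO signals were tight and all below the controls, at -1.501 (SE 0.27), or -0.89 with 32 added.

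Among 9 carriers of amino acids and peptides, 5 had positive and 4 negative differences, and 3 higher and 2 lower ones passed. Slc6a14, which takes up neutral and cationic amino acids with sodium and chloride, had signals of 1123.1, 583.8, 988.4 and 288.1 units in dKO, against 182.4, 122.6, 180.2 and 255.1 in controls. No dKO array reached down to the highest control, but dKO replicate 4, at 288.1, was close to control replicate 4, at 255.1. Its 2 probe sets gave log2 differences of 1.88 (SE 0.36) and 1.55 (SE 0.26). The promoter printed above holds an AP-1 match 82 bases before the start. Slc38a1 and Slc38a2, neighbouring genes for sodium-coupled carriers of small neutral amino acids such as glutamine and alanine, were both higher. In its brighter probe set Slc38a1 read 217.6, 270, 268.5 and 286.9 units in dKO, against 119.1, 146.9, 102.2 and 112.3 in controls, without overlap and with a log2 difference of 1.12 (SE 0.16). Here dKO replicate 4 was the highest dKO array, unlike for Slc5a8, Slc5a1 and Slc6a14. In its second, nearly as bright probe set the groups overlapped, and the difference of 0.66 (SE 0.18) did not pass. Slc38a2 read 835.8, 615.3, 765.2 and 664.5 units in dKO, against 382.9, 410.7, 520.8 and 493.3 in controls, without overlap, and differed by 0.67 (SE 0.14). Slc1a1, a sodium-coupled glutamate carrier, and Slc15a1, the peptide carrier PepT1, had overlapping groups, with log2 differences of 0.96 (SE 0.56) and 0.60 (SE 0.25).

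Slc6a19, a sodium-coupled carrier of neutral amino acids known from kidney and gut, was lower in dKO in both probe sets. The brighter one had 87.6, 103.8, 97.8 and 93.4 units in dKO, against 265.9, 235.3, 283.1 and 343.3 in controls. The dKO arrays lay close together and far below every control, with a log2 difference of -1.55 (SE 0.16), or 2.93-fold lower. The dimmer one differed by -1.90 (SE 0.28). Slc15a2, the peptide carrier PepT2, had 52, 53.9, 84.9 and 74.8 units in dKO, against 133.6, 141.8, 135.4 and 111.1 in controls in its brighter probe set, without overlap and with a log2 difference of -1.0 (SE 0.22). The dimmer probe set gave -1.72 (SE 0.64), also without overlap, and did not pass, with dKO replicate 1 at 5.8 units and the other dKO arrays at 44 to 84.5. Slc16a10, which carries aromatic amino acids, had 47.7, 63.7, 44.7 and 132.1 units in dKO, against 100.1, 114.1, 112.6 and 132.4 in controls. Its groups overlapped, because dKO replicate 4 stood level with the highest control, and the log2 difference of -0.81 (SE 0.32) did not pass. Slc7a2, a carrier of cationic amino acids, also overlapped, at -0.41 (SE 0.17). The 2 peptide carriers thus had differences of opposite sign, as did the neutral amino acid carriers Slc38a1 and Slc6a19.

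Of 8 carriers of other organic solutes, 5 had positive and 3 negative differences, and 1 of each passed. Slc10a6, a sodium-dependent carrier of sulfated steroids, had signals of 3386.1, 2610.2, 2623.8 and 2033.9 units in dKO, against 1245.2, 1295.5, 1814.3 and 878.6 in controls. The lowest dKO array, replicate 4, exceeded the highest control, replicate 3, and the log2 difference was 1.05 (SE 0.20). Slco1a5, a carrier of organic anions, had signals of 179.5, 75.2, 60.3 and 23.5 units in dKO, against 19.6, 8.1, 25.4 and 6.2 in controls. The dKO values spread over a wide range and dKO replicate 4 lay below control replicate 3, so the large log2 difference of 2.39 (SE 0.64) did not pass, and it was 1.17 with 32 added. Slc18a1, a vesicular carrier of monoamines, had 97.6, 63.5, 88.5 and 38.9 units in dKO, against 35.8, 32.9, 36.6 and 22.1 in controls. The groups were separated by a small gap between dKO replicate 4 and control replicate 3, at 1.12 (SE 0.35) on the log2 scale. Slc19a2, a thiamine carrier, differed by 0.66 (SE 0.19) without overlap. Slc16a14, of the monocarboxylate carrier family, had the lowest log2 difference of all members, -2.70 (SE 0.60), but it was dim, at 2.7 to 9.3 in dKO against 25.5 to 43 in controls, and with 32 added the difference was -0.80. Slc22a4, the carrier of ergothioneine, and Slco4a1, a carrier of organic anions that include thyroid hormones, had overlapping groups at -0.54 (SE 0.24) and -0.44 (SE 0.23). Slc35c2, a Golgi protein, stood at 0.17 (SE 0.19), also with overlap.

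Sodium coupling was a feature that the choice of members by name did not use. Of 12 carriers that move their substrate with sodium, by textbook knowledge or by the gene title in the authors' table, 9 had a positive and 3 a negative difference (Slc6a19, Slc4a9 and Slc22a4). Their median was 0.86, against -0.12 in the other 18 solute carriers, of which 9 were positive and 9 negative. This grouping was made after the values had been seen, so it carries no test.

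**Figure D2:**
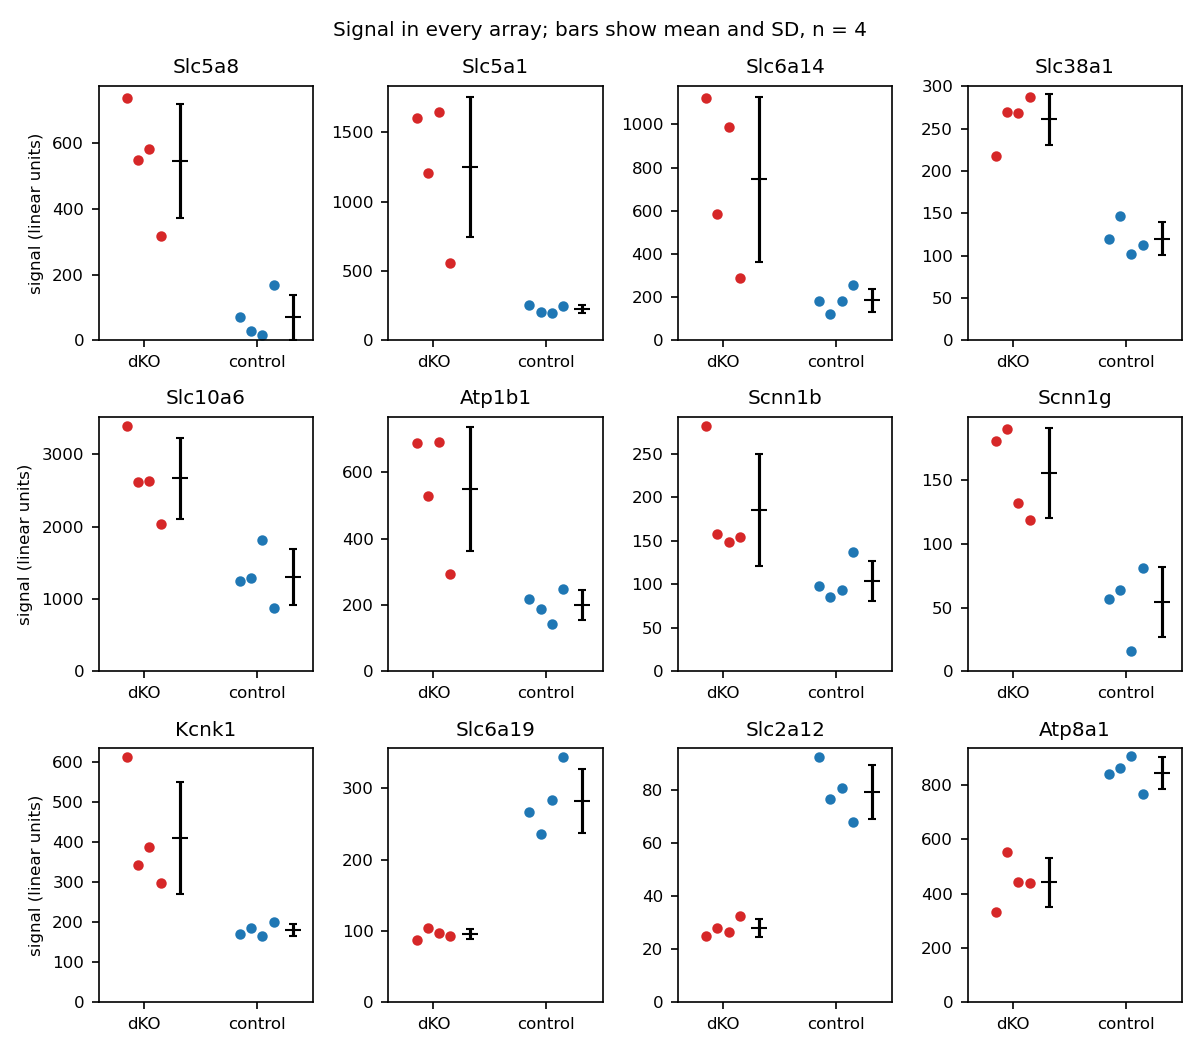
Signal in linear units (vertical axes, from 0) of 12 member genes in every dKO and control array, with the mean and SD of each group beside the points (n = 4). The first 9 genes were higher in dKO with no overlap, among them 5 sodium-coupled carriers, and Slc6a19, Slc2a12 and Atp8a1 were lower with no overlap. The dKO point farthest to the right, replicate 4, is the lowest dKO point for 7 of the 9.

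Among the ATPases, Atp1b1 encodes the beta 1 subunit of the sodium and potassium pump and was read by 4 probe sets. The brightest had signals of 687.4, 528.7, 689.8 and 294.8 units in dKO, against 217.1, 187.7, 143.9 and 248.6 in controls. The pump subunit was thus high in dKO replicates 1 to 3 and only slightly above the controls in dKO replicate 4. Its log2 difference was 1.42 (SE 0.26), and the other 3 probe sets gave 1.55, 1.42 and 0.96. In the last of these the groups overlapped, with dKO replicate 4 at 207.1 and control replicate 4 at 273.7. Atp8a1, a phospholipid flippase, had a negative difference in each of its 4 probe sets. The brightest had 334.4, 554.2, 441.5 and 437.8 units in dKO, against 839.4, 861, 907.7 and 768.7 in controls, without overlap, at -0.95 (SE 0.14), and the others gave -0.75, -0.69 and -0.81, the first of these with overlap. Atp10a, which like Atp8a1 is a P4-type ATPase, had positive differences in its 3 probe sets, at 0.75, 1.53 and 0.98 from the brightest to the dimmest, with overlap in the brightest one. The probe set at 1.53 passed, and the brightest, by which the gene is counted, did not. The 2 flippase genes therefore had opposite signs. Atp13a5, a P5-type ATPase, was dim and stood at 1.25 (SE 0.35), with signals of 43.6 to 84.6 in dKO and 19.3 to 38.3 in controls.

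Both V-type ATPase genes, whose products acidify organelles, had positive differences. Atp6v1b2, the B2 subunit of the catalytic part, had 1926.9, 1697.1, 1617.6 and 1531.8 units in dKO, against 1088.5, 1077.7, 1062.9 and 1075.3 in controls. The controls were nearly identical and all dKO arrays were higher, so that a small log2 difference of 0.65 (SE 0.10) passed. Atp6v0a4, an a4 subunit known from the kidney, was dim, overlapped, and stood at 1.71 (SE 0.52), or 0.83 with 32 added.

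The 8 channel genes were split, 4 positive and 4 negative, and 1 of each passed. Scnn1b and Scnn1g, neighbouring genes for the beta and gamma subunits of the epithelial sodium channel, were both higher in dKO. Scnn1b had 282.3, 157.4, 148.8 and 154.7 units in dKO, against 98.3, 85.9, 93.6 and 137.2 in controls, with no overlap and a log2 difference of 0.81 (SE 0.24). The highest dKO array was replicate 1, and the remaining dKO arrays lay just above control replicate 4. Scnn1g had 180.9, 190.4, 132 and 118.7 units in dKO, against 56.8, 64.1, 16.3 and 81.5 in controls, again without overlap, at 1.70 (SE 0.42). Neither passed. Scnn1g lay close to the threshold in limma (adjusted p = 0.061), as did Abca3, described below (adjusted p = 0.055). Scnn1g passed with 32 added, with median centring, with the level filter and with the replicate block. It also passed when control replicate 3, control replicate 4 or both arrays numbered 4 were left out (limma adjusted p = 0.0368 to 0.0495 in these fits). Under none of the other alternatives did it pass (0.0573 to 0.238). Other members gained calls too, as listed in the last section.

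The potassium channel genes described next encode pore-forming subunits. Kcnk1, the TWIK1 channel of the leak type, had 611.8, 343.5, 386.5 and 296.8 units in dKO, against 170.2, 184.9, 165.3 and 200.2 in controls. The groups were well apart, and its 2 probe sets gave 1.13 (SE 0.20) and 1.24 (SE 0.29). Kcnk2, the TREK1 channel of the same family, had the opposite sign, with 32.6, 20.4, 14.1 and 59.5 units in dKO, against 103.4, 84.1, 72.8 and 130.2 in controls. The dKO arrays were dim and below all controls, at -1.80 (SE 0.42), or -1.06 with 32 added. Kcna1, a voltage-gated channel, was dim and higher in dKO in both probe sets (1.41 and 0.98).

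Another 2 members are auxiliary channel subunits, and both had negative differences that did not pass. Kcne4, which modulates voltage-gated potassium channels, had 5.3, 44, 23.3 and 26.4 units in dKO, against 63.8, 125.3, 115.1 and 62 in controls. It did not overlap and stood at -2.16 (SE 0.57), with -1.13 when 32 was added. Cacna2d2, an alpha2delta subunit of voltage-gated calcium channels, had 113.9, 28.9, 29.5 and 77.1 units in dKO, against 209.6, 132.4, 89.7 and 174.4 in controls. Here dKO replicate 1 lay above control replicate 3, and the log2 difference was -1.46 (SE 0.43). Kcnq1ot1 met the naming rule but is a non-coding RNA transcribed antisense to the channel gene Kcnq1. It had 86.7, 133.3, 209 and 210.6 units in dKO, against 249.3, 321.6, 251.4 and 256.3 in controls, without overlap, and -0.84 (SE 0.25) on the log2 scale.

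**Figure D3:**
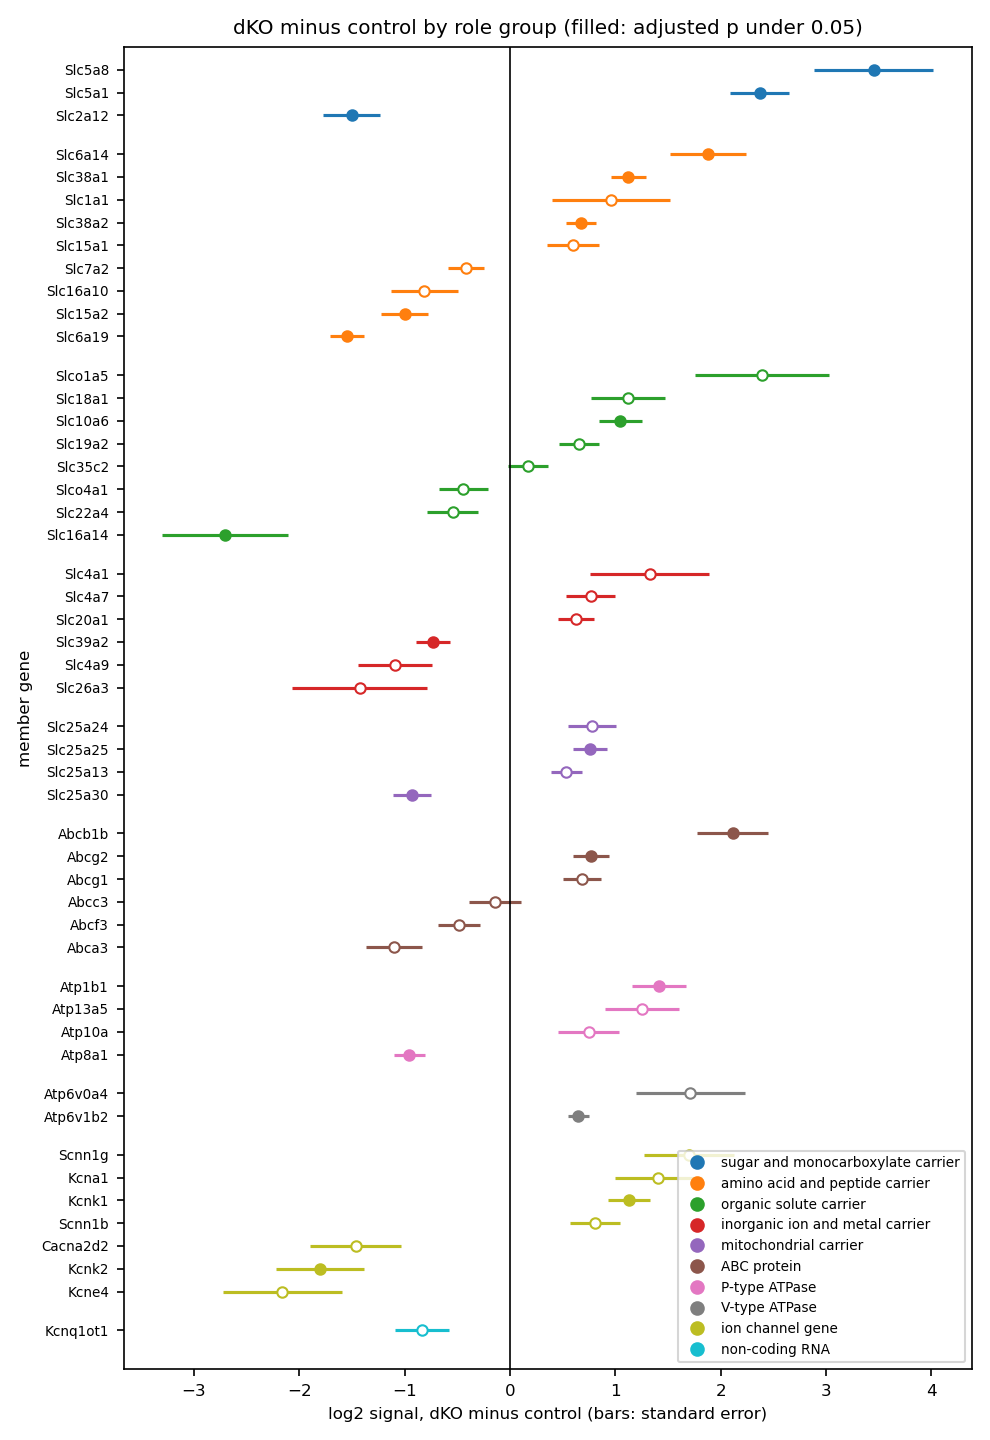
Log2 difference (dKO minus control, horizontal axis) of the brightest probe set of 50 of the 51 genes (vertical axis), grouped and coloured by role. Bars show the standard error, and filled points had an adjusted p under 0.05 in the fit over all probe sets. Each role group with more than 2 protein-coding genes holds positive and negative values.

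Of 6 carriers of inorganic ions and metals, 3 were positive and 3 negative, and the zinc importer Slc39a2 alone passed. Slc39a2, the ZIP2 carrier, had 391.9, 627.1, 523.8 and 473.1 units in dKO, against 786.2, 684.1, 1071.7 and 800.4 in controls. All dKO arrays were below all controls, at -0.73 (SE 0.17), but Slc39a2 passed in only 3 of the 16 alternatives. Slc4a9, a bicarbonate carrier, had 33.5, 116.4, 107.6 and 105.7 units in dKO, against 178.2, 169.9, 217.4 and 138.9 in controls. The groups did not overlap, and the log2 difference of -1.09 (SE 0.35) was -0.66 without the low dKO replicate 1. Slc20a1, a sodium-coupled phosphate carrier, and Slc4a7, which brings in sodium with bicarbonate, stood at 0.63 (SE 0.17) and 0.77 (SE 0.23), the second with overlap. Slc26a3, a chloride and bicarbonate exchanger, was dim and overlapped at -1.42 (SE 0.64).

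Slc4a1 is the anion exchanger of red blood cells. It had 83.9, 46.3, 54.3 and 36.1 units in dKO, against 25.9, 23.1, 6.4 and 50.5 in controls, overlapping between groups, with a log2 difference of 1.32 (SE 0.56). The other erythroid marker named in the authors' table, Alas2 of heme synthesis, averaged 224.8 units over the dKO arrays and 30.4 over the controls. The summed signal of these 2 of 8 erythroid markers was 164 to 456 in dKO and 43.3 to 70.6 in controls. Slc4a1 itself enters this sum, so Alas2 is the only separate marker, and the part of red blood cells in the Slc4a1 difference was not tested. The authors' table was selected on this contrast, so the difference between these sums was in part set by that selection.

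The 4 mitochondrial carriers were split between 3 positive and 1 negative. Slc25a25 and Slc25a24, which exchange ATP-magnesium for phosphate, stood at 0.76 (SE 0.16) and 0.78 (SE 0.23), the second with overlap because dKO replicate 4 read 202.1 and control replicate 4 read 221.9. Slc25a13, the aspartate and glutamate carrier of the malate shuttle, stood at 0.53 (SE 0.15) without overlap. Slc25a30, described in mouse kidney, was lower in all 3 probe sets. The brightest had 246.9, 207.9, 224.1 and 179 units in dKO, against 300.2, 505.3, 478.8 and 374 in controls, without overlap, at -0.93 (SE 0.18), and the others gave -0.47 and -1.17.

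ABC names were carried by 6 members. Abcb1b, a P-glycoprotein that exports drugs and lipids, had 76.4, 137.2, 95.2 and 110.6 units in dKO, against 15.1, 20, 30.6 and 34 in controls. Every dKO array was more than 2-fold above the highest control, and here dKO replicate 1 was the lowest dKO array. The log2 difference was 2.11 (SE 0.34), or 1.26 with 32 added. Abcg2, an exporter of urate and drugs, stood at 0.77 (SE 0.17). Abcg1, which exports cholesterol, had 263.2, 251, 190.4 and 188.9 units in dKO, against 116.1, 123, 166.8 and 149.9 in controls in its brighter probe set, without overlap, at 0.68 (SE 0.18). The dimmer Abcg1 probe set gave 1.91 (SE 0.59), or 0.70 with 32 added, and neither Abcg1 probe set passed. Abca3, known in the lung for moving surfactant lipids, had 111.9, 255.8, 173.9 and 317.6 units in dKO, against 388, 390.8, 534.3 and 412.1 in controls. The groups did not overlap, at -1.10 (SE 0.27), and the second probe set gave -0.70 (SE 0.21). Neither Abca3 probe set passed. Abcf3, an ABC protein without membrane domains, and Abcc3, an exporter of conjugated organic anions, overlapped at -0.49 (SE 0.20) and -0.14 (SE 0.24).

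Of the 51 genes, 13 had several probe sets, and in all 13 these had the same sign. The authors' selection acted on each of those probe sets, so this is not independent support. The members nearest to the limits of the authors' deposited table were Slc35c2, with an absolute fold of 1.51, and Slc4a1, with a p-value of 0.0494. Values just outside its limits are not part of that table.

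The authors' deposited table and the value table gave all 51 members the same sign but not the same size. In 33 genes the difference from the value table was larger, and in 7 it was under 1.5-fold, namely Abcc3, Abcf3, Slc22a4, Slc25a13, Slc35c2, Slc7a2 and Slco4a1. The authors' deposited table gave ratios (KO over control) of 8.94 for Slc5a8, 4.56 for Slc5a1 and 0.336 for Slc6a19. From the value table these 3 were 10.9-fold and 5.17-fold higher and 2.93-fold lower in dKO. The gap was wide for Slc16a14, with a ratio of 0.648 in the authors' deposited table and a 6.51-fold lower signal in the value table. It ran the other way for Abcc3, with a ratio of 0.622 in the authors' deposited table and signals of 81 to 145 in dKO against 93 to 166.5 in controls.

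**Figure D4:**
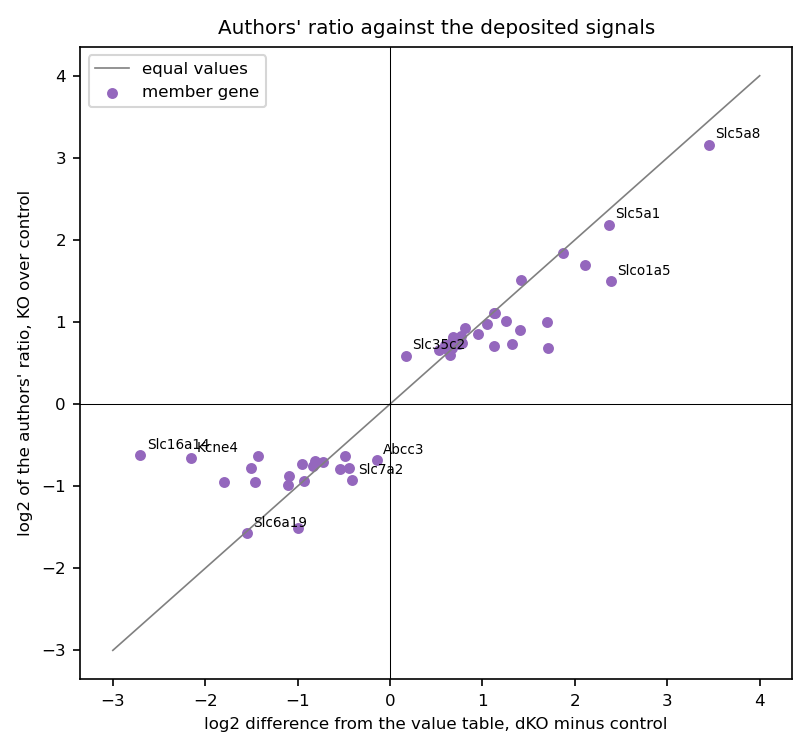
Log2 of the ratio in the authors' deposited table (vertical axis, KO over control) against the log2 difference from the value table (horizontal axis, dKO minus control) for 50 of the 51 member genes. The grey line marks equal values. All points lie where both values have the same sign, Slc16a14 and Kcne4 lie far to the left of the line, and Abcc3 and Slc35c2 lie close to 0 on the horizontal axis alone.

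The choice of members used no single array's place within its genotype, although the p-values of the authors' table depend on the spread within each genotype. Among the 30 genes with positive differences, dKO replicate 4 was the lowest dKO array in 22 and dKO replicate 1 the highest in 19. Over all tested probe sets the same arrays held these places in 23.2% and 26.3%. Among the controls, replicate 4 was highest for 15 of the 30 genes, against 28.9% of all probe sets. Among the 21 genes with negative differences, dKO replicate 1 was the lowest dKO array in 15 and dKO replicate 4 the highest in 10, against 33.4% and 31% of all probe sets. Among the other probe sets of the authors' table with positive differences, dKO replicate 4 was lowest in 54.4%, while dKO replicates 1 and 3 were each highest in 36.3%, and control replicate 4 was the highest control in 46.4%. Among those with negative differences, dKO replicate 1 was lowest in 54.2% and dKO replicate 4 highest in 554 of 1107. No difference between members and other probe sets was tested.

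Averaged over the 30 genes and set against the control mean, the log2 signal was 1.52, 1.19, 1.31 and 0.73 in dKO replicates 1 to 4, against -0.02, -0.08, -0.14 and 0.24 in control replicates 1 to 4. Over the 21 genes it was -1.5, -0.96, -1.10 and -0.78 in dKO, against -0.06, -0.01, 0.09 and -0.02 in controls. Thus dKO replicate 4 stood nearest to the controls in both sets, and in the first set control replicate 4 stood nearest to dKO. Of the 30 genes, 22 had dKO replicate 4 above every control, against 28, 28 and 29 for dKO replicates 1 to 3. The 6 activated keratinocyte genes Krt6a, Krt6b, Krt16, S100a8, S100a9 and Sprr1b stood at 5.75, 5.11, 5.64 and 3.32 in dKO, against -1.09, -0.38, -0.84 and 2.32 in controls, on the same scale, with the dKO arrays in the same order as for the 30 genes. Their summed signal was 39434 to 87772 in dKO and 1451 to 13746 in controls, and their part in the members' differences was not tested. Singly, S100a8 and S100a9 overlapped, at 247.9 and 182 units in dKO replicate 4 against 391.8 and 206.1 in control replicate 4. The erythroid genes Slc4a1 (itself a member) and Alas2 had that order too, at 2.93, 2.04, 2.18 and 1.55 in dKO, against 0.06, -0.10, -0.19 and 0.23 in controls. So did the 7 myeloid and Langerhans cell markers, downwards, at -2.73, -1.19, -2.30 and -0.81 in dKO, against 0.19, -0.10, 0.28 and -0.37 in controls. The 4 Merkel cell markers did not, with dKO replicate 4 farthest from the controls (-2.21). Other orders were also seen for T cell markers (-3.09, -2.39, -2.28 and -2.08 in dKO replicates 1 to 4) and sebocyte markers (-3.11, -2.89, -3.62 and -2.73). The same holds for hair shaft and root sheath markers (-2.93, -3.98, -4.79 and -2.37) and fibroblast markers (-0.38, 1.02, 0.20 and 0.35). The single genes named for melanocytes, Schwann cells, adipocytes and keratinocytes did not have that order either. All these markers are named in the authors' table, so their distance from the controls was in part set by its selection on this contrast. Without both arrays numbered 4, 24 member probe sets passed as higher and 12 as lower, where 3.39% of all probe sets passed.

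**Figure D5:**
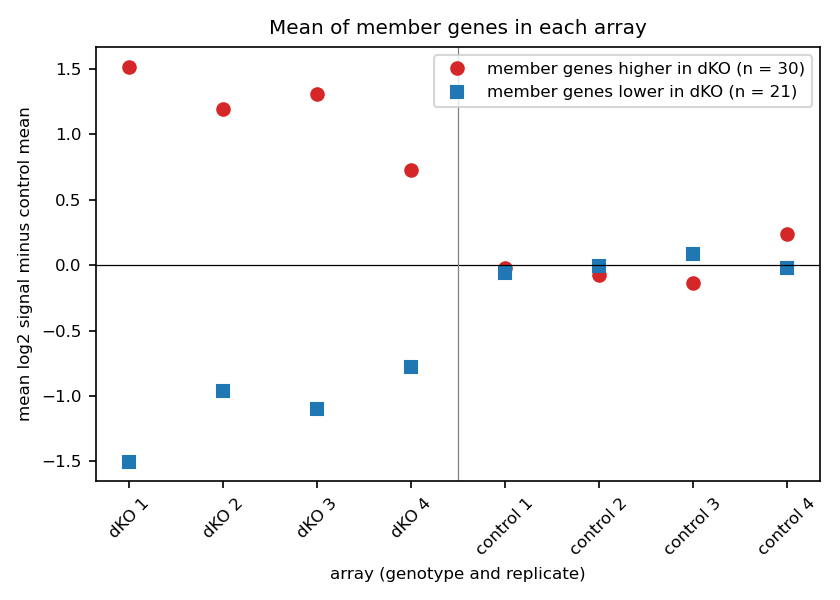
Mean log2 signal minus the control mean (vertical axis) over the 30 member genes with positive and the 21 with negative differences, in each array (horizontal axis). Among dKO arrays, replicate 4 is closest to 0 in both sets (0.73 and -0.78), and replicate 1 is farthest (1.52 and -1.5).

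Markers of other cell types that the authors' table names are given by their summed signal. The table was selected on this same contrast, and markers that it does not name do not enter the sums. Differences between the sums and counts past the threshold were thus in part set by that selection. Nothing about cell numbers is read from them. Past the threshold were 40.8% of its probe sets, against 2.25% of all tested probe sets. Of 11 myeloid and Langerhans cell markers 7 were named, 5 of which passed as lower, and their summed signal was 443.4 to 1696 in dKO and 2221 to 3538 in controls. For 3 of 6 T cell markers, all past the threshold, the sums were 86.0 to 228.6 in dKO and 418.3 to 536.6 in controls. For 4 of 7 sebocyte markers, all past the threshold, they were 205.9 to 379.6 in dKO and 1309 to 3850 in controls. For 9 of 12 hair shaft and root sheath markers, 8 of which passed, they were 1004 to 4000 in dKO and 4500 to 25007 in controls. For 4 of 5 Merkel cell markers, none past the threshold, they were 87.8 to 121.4 in dKO and 169.3 to 387.7 in controls. Of 8 fibroblast markers 4 were named, with sums of 2441 to 3991 in dKO and 1516 to 2147 in controls that rest mostly on Sparc, which alone passed as higher. Col5a1 and Fbn1 had positive differences with overlap, and Fap a negative one of -1.39 (SE 0.40), also with overlap. Melanocyte, Schwann cell and adipocyte markers had 1 named gene each, none past the threshold, and muscle and endothelial markers had 0. The part of these cell types in the members' differences was not tested. Of the 5 keratinocyte keratins listed, only Krt15 was named, with 2910 to 4922 units in dKO and 8106 to 13338 in controls.

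Of 67 related genes outside the naming rule, among them channels, gap junction proteins, regulators and the 3 carriers left out, 7 were named in the authors' table, and 1 passed as higher and 3 as lower. Since that table was selected on this contrast, nothing is read from this count. Of its probe sets 40.8% passed, against 2.25% of all tested probe sets. The higher one was Slc2a3. The lower ones were Gjb5, a connexin of gap junctions (-2.03, SE 0.29), Wnk4, a kinase that regulates sodium and chloride carriers (-1.94, SE 0.26), and Mt4, a metallothionein that binds zinc in stratified epithelia (-3.28, SE 0.37). The 3 that did not pass all had positive differences with overlap. They were the connexin gene Gjb2 (1.20, SE 0.30), opposite in sign to Gjb5, and the carriers Slc16a3 and Slc7a11. The signal of Wnk4 averaged 40.1 units over the dKO arrays and 153.8 over the controls.

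Across all arrays the median signal was 40.7 to 47.4 in dKO and 46.3 to 51.7 in controls (exact two-sided permutation p = 0.143), and the smallest p this design allows is 0.0286. An index of RNA integrity, the 3 prime over 5 prime signal of the Gapdh and Actb controls in log2 units, averaged 0.016 ± 0.040 over dKO arrays and 0.11 ± 0.106 over control arrays (SD, n = 4 per genotype; p = 0.171 by the same exact permutation test). Array pairs correlated at 0.912 to 0.927 within dKO, 0.897 to 0.918 between genotypes and 0.903 to 0.929 within controls. Of the 51 members, 7 had a mean below the median of all probe sets, 47.2 units: Atp6v0a4, Kcna1, Slc4a1, Atp13a5, Slc1a1, Slc26a3 and Slc16a14. Signals of different probe sets are not compared with each other, and the number of arrays limits the precision.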

How the data were processed

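Newborn mouse epidermis was measured on 8 Affymetrix Mouse 430 2.0 arrays, 4 dKO and 4 control. The deposited table of signals gives an intensity, on a linear scale, for each probe set on each array, and its arrays share a 2% trimmed mean of 250.0. The submitters' processing notes name MAS5 and Partek without saying what each did. Per the file headers, the authors' deposited table gives a ratio of KO over control, a p-value for which no adjustment is named, and a signed fold and F statistics, taken here as scores. Its members here had absolute folds of at least 1.51 and p-values of at most 0.0494. Groups were taken from the sample titles.

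Of 45101 probe sets, 64 Affymetrix controls and 5 others with a signal of 0 were left out. Intensities were converted to log2 with no offset and fitted over 45032 probe sets with limma 3.58.1 in R 4.3.3 (intensity trend, genotype as single term, Benjamini-Hochberg adjustment, threshold 0.05). Fold values are 2 to the power of the log2 difference. The alternatives were an offset of 32, median centring, quantile normalization, no trend, robust variance, a level filter, a replicate block and left-out arrays.

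The members, lists and tests were chosen with earlier results of these data known. All members could be named, except that 1 gene is not reported here singly and enters the counts and means only. Values in every array were given for the 12 largest positive and 12 largest negative differences at or above the median level and for preset genes. Sodium-coupled carriers were grouped after the values had been seen. Symbols are those of the authors' table, and all 51 were found in RefSeq. Same-numbered dKO and control arrays deviated from their group means with correlations of 0.017, -0.002, -0.037 and -0.018, so the numbers were not taken as pairs. On simulated data of 45032 probe sets the fit recovered 52% of 100 probe sets changed by 1 and 90% of 100 changed by 2 on the log2 scale.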

Additional observations from a re-analysis of the deposited data

Results flagged for a closer look

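In 4 of 102 groups of 4 arrays (51 genes in dKO and in controls), 1 array lay far from the other 3 relative to the range of its group. Chance flags about 1 in 20 such groups. For Scnn1b this was dKO replicate 1, at 282.3 units, where the remaining dKO arrays spanned 148.8 to 157.4. For Slc4a9 it was the same array, at 33.5 units, where the remaining dKO arrays spanned 105.7 to 116.4. For Kcnq1ot1 it was control replicate 2, at 321.6 units, where its fellow controls spanned 249.3 to 256.3. For Abca3 it was control replicate 3, at 534.3 units, where its fellow controls spanned 388 to 412.1.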

How the results depend on the processing

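Across 16 alternatives, 808 of 809 differences of single members kept their sign, the exception being Abcc3, which ranged from -0.28 to 0.023 when 1 array was left out and was positive in the absence of control replicate 3. The reported counts were 18 member probe sets higher and 11 lower in dKO. Without the intensity trend of the variance model they were 0 and 2 (Slc6a19 and Slc2a12 by gene, limma adjusted p = 0.0327 and 0.0346), where 0.133% of all probe sets passed. Centring each array on its median moved all differences by 0.125 and gave 6 lower. Leaving out 1 array gave 10 to 23 higher and 4 to 11 lower. Leaving out dKO replicate 3 gave 10 and 6, control replicate 1 gave 10 and 5, control replicate 2 gave 10 and 4, and control replicate 3 gave 14 and 5. Of the 20 genes past the threshold, taken by their brightest probe set, 7 passed in all 8 fits without 1 array: Slc5a8, Slc5a1, Abcb1b, Slc38a1 and Atp6v1b2, higher, and Slc6a19 and Atp8a1, lower. The other 13 lost the call in 1 to 7 of these fits, with limma adjusted p up to 0.147 for Kcnk2. Robust estimation ended the calls of Slc5a8 and Slc6a14. In 27 of the 809 values a gene that had not passed gained a call. These were Scnn1g in 7 alternatives and Abca3 and Slco1a5 in 3 each. Cacna2d2, Slc15a1, Slc20a1 and Slc25a24 gained it in 2 each. Abcg1, Atp13a5, Kcne4, Slc16a10, Slc18a1 and Slc4a7 gained it in 1 each. With the replicate block, 15 probe sets were higher and 8 lower, and the numbers were not shown to pair the arrays. The cause of these changes was not tested. No detection calls were used, so differences of dim members depend on signals near background.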
